A study of Mus musculus with 192 samples.

Results

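The 10 genes described here are the constant region genes of the antibody chains in the mouse, together with the gene for the chain that joins antibodies into polymers. They were picked by gene name from the 54752 genes in the table, with earlier results of these data known. The heavy chain genes were Ighm, Ighd, Ighg1, Ighg2b, Ighg2c, Ighg3, Igha and Ighe, the light chain gene was Igkc, and the joining chain gene was Jchain. RNA was sequenced from male mice, C57BL/6 and aged 12 weeks by the labels (C57BL/6J in the study's methods), either wild type (WT) or with a germline deletion of Nrf2 in all tissues (Nrf2-KO, here KO). Mice of each genotype flew on the International Space Station (FL) or were kept on the ground in the same kind of cage (GC), which gave the groups GC_WT, FL_WT, GC_KO and FL_KO. In the study's methods, 12 weeks was the age when the mice were ready for launch. Tissue was taken after the month-long flight or its simulation on the ground, so the mice were older by then. Each group had 6 mice in spleen (Spl), temporal bone (TpB), epididymal white fat (eWAT) and thymus (Thy) and 3 in mandibular bone (MdB). Flight mouse 04, an FL_KO animal with a bleed in the intestine, was left out, and 5 FL_KO mice remained, or 2 in MdB. Flight and ground mice were dissected at different sites and in different months, so that flight cannot be told apart from place and date. KO mice with a shunt in the liver had been screened out before launch.

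An antibody is built from paired heavy and light chains, and the constant region of the heavy chain sets its class. Naive B cells make IgM and IgD from one gene locus by alternative processing of the same transcript, and an activated B cell can exchange the Ighm segment for a downstream gene, which is called class switching and yields IgG, IgA or IgE. Plasma cells, which arise from activated B cells, fill much of their messenger RNA pool with the secreted forms of these chains. Jchain links IgM and IgA into polymers. The spleen is a main site of B cell responses, while the thymus is a T cell organ that holds a small number of B cells and plasma cells.

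The heavy chain genes lie side by side on chromosome 12, on the minus strand of GRCm38, from Igha at position 113254830 to the far end of Ighm at 113422730. Igkc lies on chromosome 6 (plus strand, 70726435 to 70726966) and Jchain on chromosome 5 (minus strand, 88519809 to 88527891). The IgG genes are close relatives, so their sequences show how far 76-base reads can tell them apart. The lines below give the first 80 coding bases of exon 4, which codes for the last constant domain of the IgG heavy chain, 5′ to 3′, with capitals at the bases that differ from Ighg2b.
Ighg1, chr12:113329219-113329298: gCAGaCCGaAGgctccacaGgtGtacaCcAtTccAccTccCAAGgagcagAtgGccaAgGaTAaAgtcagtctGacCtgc
Ighg2b, chr12:113306632-113306711: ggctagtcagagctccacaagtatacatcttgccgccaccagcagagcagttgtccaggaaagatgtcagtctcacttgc
Ighg2c, chr12:113287632-113287711: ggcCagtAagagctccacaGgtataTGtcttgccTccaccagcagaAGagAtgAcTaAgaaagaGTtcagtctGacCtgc
Ighg3, chr12:113359908-113359987: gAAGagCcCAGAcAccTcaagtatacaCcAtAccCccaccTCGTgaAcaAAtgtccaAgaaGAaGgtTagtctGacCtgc
Between pairs of IgG genes, whole exon 4 was 64.1% to 76.2% identical. The next exon codes for the start of the membrane tail that is found only in the receptor form on the B cell surface, and it was far more alike, at 89.3% to 96.2%. It is printed whole, with capitals marking the same comparison.
Ighg1, chr12:113327442-113327572: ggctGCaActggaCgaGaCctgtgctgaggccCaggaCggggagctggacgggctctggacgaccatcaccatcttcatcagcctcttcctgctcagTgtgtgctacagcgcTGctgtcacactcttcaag
Ighg2b, chr12:113304909-113305039: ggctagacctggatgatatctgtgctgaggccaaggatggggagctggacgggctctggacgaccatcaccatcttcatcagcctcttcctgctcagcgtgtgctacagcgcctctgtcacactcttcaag
Ighg2c, chr12:113285912-113286042: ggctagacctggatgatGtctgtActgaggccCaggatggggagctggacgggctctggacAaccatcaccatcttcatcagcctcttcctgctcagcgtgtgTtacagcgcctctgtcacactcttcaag
Ighg3, chr12:113358070-113358200: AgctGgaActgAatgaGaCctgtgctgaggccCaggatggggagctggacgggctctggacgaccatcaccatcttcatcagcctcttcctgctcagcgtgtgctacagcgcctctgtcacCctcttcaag
Exon 1, which codes for the first constant domain, was 78.4% to 88.3% identical between pairs. Of all 76-base windows in the annotated transcripts, those found also in another gene made up 0% for 7 of the 10 genes, 0.653% for Ighg2b (17 of 2602), 0.533% for Ighg3 (13 of 2437) and 0.32% for Ighg2c (4 of 1250). These windows came from a later release of the annotation (GENCODE vM21) than the vM20 of the deposited table. The gene span of a long non-coding RNA, Gm30211, covers all 532 bases of Igkc on the same strand. Of the 457 windows of Igkc, however, 0 occurred in an annotated transcript of another gene. Gm30211 was listed at 7.27 to 12.8 TPM in Spl and at most 1.19 TPM in the other 4 tissues tested. TPM is a transcript level corrected for transcript length and library size.

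Nfe2l2, the gene for Nrf2, was lower in every KO mouse than in every WT mouse in all 5 tissues, for example at 7.55 to 13.6 TPM against 20.9 to 32.5 TPM in Thy and at 60.4 to 67.8 TPM against 73.1 to 86.7 TPM in Spl. Libraries held 8007523 to 16046347 counts. The summed adipocyte list reached 47619 to 74720 TPM in eWAT and the bone list 49224 to 78465 TPM in MdB. TpB was a mixture, with 429 to 29680 TPM of skeletal muscle genes, 29.0 to 7046 TPM of salivary and lacrimal gland genes and 844 to 2874 TPM of bone genes. In such bulk RNA, fewer cells of a type and less RNA per cell cannot be told apart. Samples of a tissue came from separate mice, so p-values measure the spread between mice.

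Spleen was the main source of these transcripts. Thymus libraries were made from RNA depleted of ribosomal RNA and those of the other tissues from poly(A) RNA. Levels in Thy and in the other tissues are therefore not on the same basis. Together the 10 genes made up 3.44% to 11.2% of all TPM in Spl (median 6.96%, 23 mice), against 0.0747% to 0.267% in Thy, 0.0256% to 0.298% in TpB, 0.0154% to 0.521% in eWAT and 0.00831% to 0.0145% in MdB. For 9 of the 10 genes, the lowest spleen lay above the highest sample of the tissue ranked next by median. The exception was Ighe, at 0.20 to 16.3 TPM in Spl and 0.06 to 2.91 TPM in Thy. Single samples of lower tissues could still reach a spleen, as did Ighg2c at 212 TPM in the eWAT of FL03, against 162 TPM in the lowest spleen. Within the spleen, Igkc was highest at 22491 to 78707 TPM (median 45873) and Ighm followed at 8428 to 25390 TPM (median 16880), with ranges that overlapped slightly. Ighg2c, Ighd, Jchain, Ighg2b, Ighg3 and Igha followed with medians from 1257 down to 457 TPM and ranges that overlapped from each to the next. Ighg1 (median 93.7 TPM) overlapped Igha as well but not Ighe (median 1.71 TPM). Thymus kept Igkc (median 792 TPM) and Ighm (median 441 TPM) at the top but held almost no Ighd, at 1.16 to 3.06 TPM. Ighd, the marker of naive B cells, was in TpB at 3.0 to 96.3 TPM.

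Among these 10 genes in the spleen, those that differed between the genotypes coded for IgG and IgE. Ighg2c, the main IgG2a-type class in C57BL/6 mice, was at 162 to 1544 TPM in the 12 WT spleens (median 851) and at 1169 to 6408 TPM in the 11 KO spleens (median 2711). Among WT mice, only GC05, GC08, FL06, FL07 and FL10 exceeded the lowest KO spleen. In GC_WT the mice 03, 05, 06, 07, 08 and 10 had 234, 1242, 863, 839, 1214 and 264 TPM. FL_WT mice 03, 05, 06, 07, 08 and 10 had 488, 162, 1257, 1490, 682 and 1544 TPM, so that both WT groups covered about the same range. GC_KO mice 01, 02, 04, 09, 11 and 12 had 1358, 1169, 1753, 3695, 1170 and 3054 TPM, and FL_KO mice 01, 02, 09, 11 and 12 had 1336, 2711, 3568, 3115 and 6408 TPM. Averaged over flight and ground, a contrast that was added after the values were seen, Ighg2c was 3.14-fold higher in KO (log2 1.65 ± 0.37, SE, edgeR quasi-likelihood test, Benjamini-Hochberg adjusted p = 0.00923).

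Ighg2b, another IgG class, was at 136 to 1108 TPM in WT (median 425) and at 694 to 6253 TPM in KO spleens (median 984). Only the WT mice GC05, GC08 and FL07, at 1108, 844 and 982 TPM, lay above the lowest KO spleen. KO mice on the ground had 694, 2157, 1490, 747, 706 and 742 TPM, and those in flight had 984, 926, 1981, 1631 and 6253 TPM in the order of mouse numbers above. The difference averaged 3.18-fold (log2 1.67 ± 0.39, adjusted p = 0.0143). FL12 stood far above the other FL_KO mice.

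Ighg1 codes for the class that follows many protein antigens. It was at 278, 111, 39.0, 93.7, 207 and 39.9 TPM in GC_WT, and at 50.7, 54.8, 47.9, 35.1, 60.0 and 72.2 TPM in FL_WT. In KO mice it was at 79.1, 249, 551, 316, 230 and 90.5 TPM on the ground and at 62.9, 302, 147, 605 and 188 TPM in flight. FL_WT was narrow and low, and only FL01 of the FL_KO mice fell within its range. The averaged difference was 3.19-fold (log2 1.67 ± 0.38, adjusted p = 0.0115). Ighe, the rarest class, was at 0.20 to 6.59 TPM in WT (median 1.23) and 1.03 to 16.3 TPM in KO (median 4.89), a difference of 3.90-fold (log2 1.964 ± 0.42, adjusted p = 0.00721). The ranges overlapped, and FL01 was lowest in KO.

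**Figure D1:**
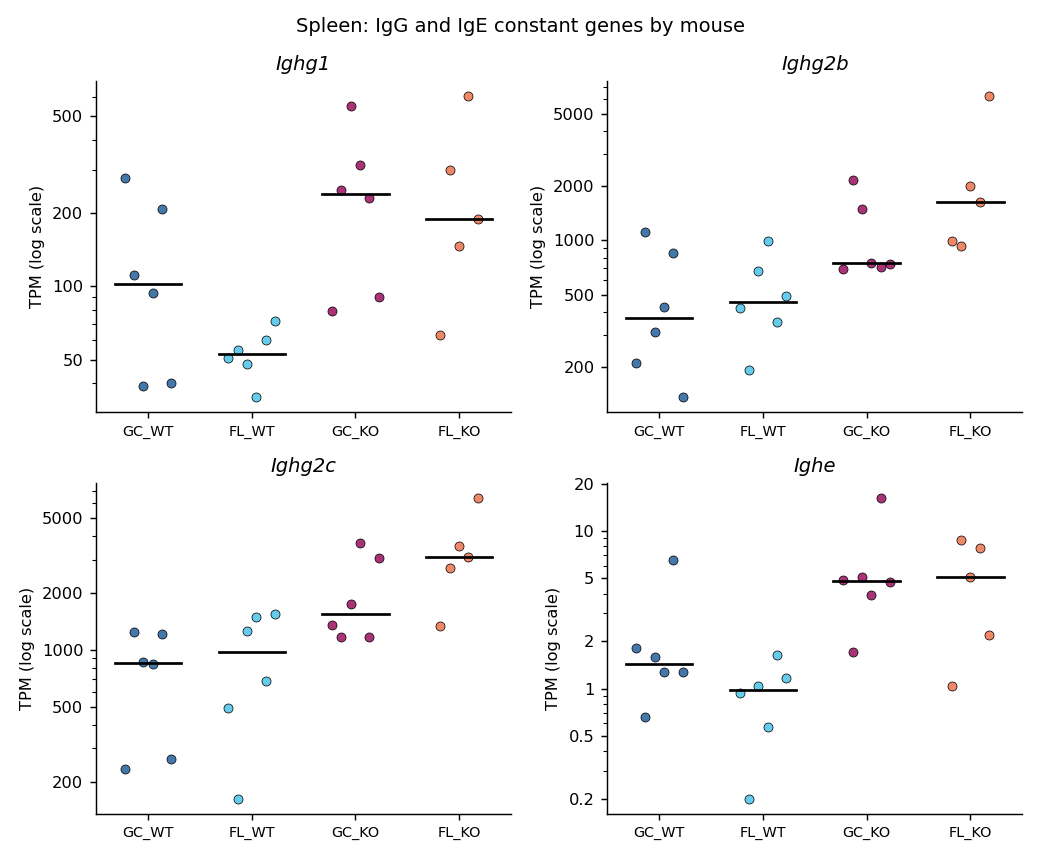
TPM of switched heavy chain genes in each spleen on a log scale, by group (GC_WT, FL_WT, GC_KO and FL_KO). The panels are Ighg1, Ighg2b, Ighg2c and Ighe, each point is a mouse and lines mark group medians. Over both housing conditions the KO median of Ighg1 is 230 TPM and the WT median 57.4 TPM, and ranges overlap in every panel.

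In all, 4 of 10 genes were higher in KO spleens, beside 1.79% of the 16170 genes tested that were called higher in this comparison (3.61% in either direction), and 0 were lower. Each of the 4 calls held in DESeq2 and limma, under other scalings and without any single mouse. They did not all hold without 4 WT mice together, GC03, GC10, FL05 and FL08, whose spleens stood apart in other constant genes as described below. In that fit, added after the values were seen, Ighg1 (log2 1.76, adjusted p = 0.0391) and Ighg2c (1.25, adjusted p = 0.0326) passed, while Ighg2b (1.297, adjusted p = 0.116) and Ighe (1.84, adjusted p = 0.0734) did not, beside 1.91% of all genes called. The averaged contrast uses the same mice as the genotype contrasts within each housing condition, so the values are not independent of each other. Ighg3 went the same way without passing (log2 1.09 ± 0.41, adjusted p = 0.170), at 85.0 to 1198 TPM in WT and 218 to 2140 TPM in KO. Igha, the mucosal class, had a difference of log2 -0.32 ± 0.22 (adjusted p = 0.544), and Ighm one of 0.10 ± 0.18 (adjusted p = 0.853). For Igkc the difference was 0.35 ± 0.17 (adjusted p = 0.321), for Jchain 0.26 ± 0.15 (adjusted p = 0.411) and for Ighd -0.16 ± 0.05 (adjusted p = 0.0883).

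Within a housing condition, edgeR made 1 genotype call in the spleen, in flight mice. Between FL_KO and FL_WT, where 1.16% of genes were called and 0.495% were higher, Ighg1 was 5.15-fold higher (log2 2.37 ± 0.56, adjusted p = 0.0324). The values for Ighg2b (log2 2.25, adjusted p = 0.0528), Ighe (2.46, 0.0616) and Ighg2c (1.92, 0.0836) did not pass in edgeR. In DESeq2 all 4 genes passed as higher there (adjusted p from 0.00427 to 0.0300), and in limma 0 of 10 did. The Ighg1 call was lost without FL_KO mouse 02 or 11, without FL_WT mouse 03, 05, 06, 07 or 08, in limma, and without the 4 WT mice together (log2 2.39, adjusted p = 0.134). Between GC_KO and GC_WT, where again 1.16% of genes were called, the differences in Ighg1, Ighg2b, Ighg2c and Ighe were log2 0.98, 1.09, 1.37 and 1.46, with adjusted p-values from 0.268 to 0.521, and 0 of 10 genes passed in edgeR, DESeq2 or limma, although 3 were under an unadjusted 0.05. Ighe passed there without GC_WT mouse 08 (log2 2.21, adjusted p = 0.047). The difference between the genotype effects of flight and ground mice was tested as an interaction, and 0 of 10 genes passed in edgeR, with 0 under an unadjusted 0.05 and a smallest adjusted p of 0.999.

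Over the 43 gene and tissue pairs tested in the 5 tissues, FL_WT against GC_WT gave 0 calls in edgeR, 0 in DESeq2 and 3 in limma, beside 7.44%, 6.93% and 11.2% of all pairs. FL_KO against GC_KO gave 2 calls in edgeR, 2 in DESeq2 and 5 in limma, beside 9.14%, 6.82% and 8.15%. GC_KO against GC_WT gave 0 calls by each tool, beside 1.58%, 2.02% and 1.01%, and FL_KO against FL_WT gave 1 in edgeR, 6 in DESeq2 and 0 in limma, beside 1.04%, 1.44% and 0.735%. The interaction gave 0 calls in edgeR, 1 in DESeq2 and 0 in limma, beside 0%, 0.0179% and 0.00171%. The averaged contrasts gave 8 calls for genotype in edgeR, 9 in DESeq2 and 6 in limma, beside 3.84%, 4.24% and 5.94%, and for flight 8, 6 and 7, beside 15.3%, 12.7% and 17.2%.

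Flight itself moved no constant gene of the spleen past the threshold in edgeR. Between FL_WT and GC_WT 0 of 10 passed in edgeR (2.26% of all genes did), with 1 under an unadjusted 0.05. The lowest fold was that of Ighg1 (log2 -1.27, adjusted p = 0.215). Between FL_KO and GC_KO 0 of 10 passed (0.668% of all genes), with 2 under an unadjusted 0.05. Averaged over genotypes 0 of 10 passed (8.09% of all genes), with 1 under an unadjusted 0.05. In the same spleens the erythroid genes, which mark the red cell precursors that the mouse spleen makes, fell in flight for 6 of 9 genes in WT and 9 of 9 in KO mice, and their summed level was 54.3 to 343 TPM in GC_WT and 13.9 to 39.4 TPM in FL_WT.

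The same TPM values were then expressed as a share of the heavy chain pool, which is not independent of the folds above. Ighm supplied 75.6% to 88.3% of the heavy chain TPM in WT spleens and 53.6% to 79.0% in KO spleens. All switched classes together supplied 12.5% ± 3.5 (SD, n = 6) in GC_WT, 11.6% ± 2.8 (SD, n = 6) in FL_WT and 22.5% ± 6.9 (SD, n = 6) in GC_KO. In FL_KO mice it was 25.5% ± 10.8 (SD, n = 5), and the highest value, 43.1%, was that of FL12, whose Ighg2b and Ighg2c were the highest of all spleens. Pooled, WT spleens ranged from 7.05% to 19.1% (median 12.2%) and KO spleens from 15.6% to 43.1% (median 21.3%). The share was likewise higher by median in KO thymus, at 23.0% to 35.9% (median 27.9%) against 12.3% to 27.6% (median 17.8%), and in KO TpB, at 9.66% to 32.5% (median 16.4%) against 4.0% to 23.1% (median 8.77%). In TpB this did not hold in both ranges of library numbers, since the median was 12.5% in KO and 13.3% in WT among mice 01 to 06, and 17.5% and 8.52% among mice 07 to 12. Ranges overlapped in all 3 tissues, and no test was made of a share summed over the genes.

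**Figure D2:**
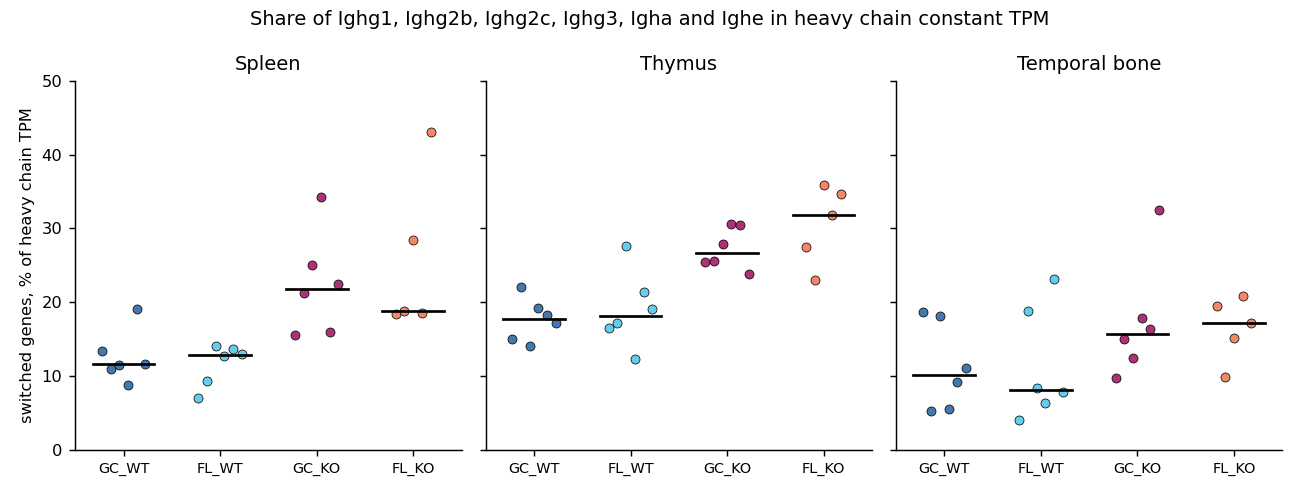
Share of the heavy chain constant TPM that came from the switched genes (Ighg1, Ighg2b, Ighg2c, Ighg3, Igha and Ighe), in percent, for each mouse of the 4 groups in spleen, thymus and temporal bone. Points are mice and lines are group medians. In spleen KO mice span 15.6% to 43.1% and WT mice 7.05% to 19.1%.

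Genes for receptors that bind antibody were read beside these levels. In the spleen, 2 of 9 receptor genes rose in KO mice over the average contrast, beside 1.79% of all genes called higher. Fcgr4, an activating receptor for IgG2 classes on myeloid cells, was at 25.4 to 42.2 TPM in WT mice and 34.9 to 99.2 TPM in KO mice (log2 0.95 ± 0.15, adjusted p = 0.000248). It passed also on the ground (log2 0.89, adjusted p = 0.0307) and in flight (log2 1.01, adjusted p = 0.0135). Fcgrt, the neonatal Fc receptor that protects IgG from breakdown, rose by log2 0.28 ± 0.05 (adjusted p = 0.000802). These genes were chosen after their values were seen. The neutrophil list, which marks a cell type that can carry Fcgr4, had 3 of 9 genes higher in KO spleens and a summed level of 90.3 to 874 TPM in GC_WT, 143 to 301 TPM in FL_WT, 272 to 1052 TPM in GC_KO and 226 to 342 TPM in FL_KO. Its part in the Fcgr4 result was not tested. Of 10 macrophage genes, 0 passed.

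Other B lineage lists did not move as the IgG genes did. Of 16 mature B cell genes, 5 were lower in KO spleens and 0 higher, with a median of log2 -0.14. Of all 16170 spleen genes tested, 293 were called lower and 290 higher in this averaged contrast. Cd79a, a signalling chain of the B cell receptor, had a difference of log2 -0.15 ± 0.04 (adjusted p = 0.0457). Of 15 plasma cell genes, 0 passed (median log2 0.19), with Sdc1, the plasma cell surface proteoglycan, at 0.37 ± 0.16 (adjusted p = 0.239) and Mzb1, a chaperone of antibody assembly, at 0.19 ± 0.09 (adjusted p = 0.305). Their summed level was 1211 to 1723 TPM in GC_WT, 1331 to 1722 TPM in FL_WT, 1470 to 1659 TPM in GC_KO and 1504 to 1932 TPM in FL_KO, ranges that overlapped. Of 13 germinal centre and class switch genes, 1 was lower, namely the cytokine gene Tgfb1 (log2 -0.11 ± 0.03, adjusted p = 0.0350). In the stroma list 2 of 6 genes were lower, among them Cxcl13, which draws B cells into follicles (log2 -0.23 ± 0.05, adjusted p = 0.0105). Genes named from these lists were chosen after their values were seen.

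The constant genes of the spleen also varied among WT mice of the same group. GC03 and GC10 of GC_WT and FL05 and FL08 of FL_WT had Ighm at 8428, 8770, 10623 and 10221 TPM, while the other 8 WT spleens had 15914 to 23747 TPM. The same 4 spleens were lowest among WT mice in Igkc, at 22491 to 25356 TPM, and in Jchain, at 506 to 607 TPM, and highest in Ighd, at 1240 to 1287 TPM. Over all 23 spleens, the deviations of Ighd from the group means went against those of Ighm (Pearson r = -0.81) and Jchain (r = -0.73), while Igkc went with Ighm (r = 0.89) and with Jchain (r = 0.88). Ighg1 hardly followed Igkc (r = 0.07). These correlations are descriptions over libraries that share a tissue and a preparation, and the 4 spleens that stood apart take part in them. Genes outside the antibody loci whose deviations were most like those of Igkc, among 11437 ranked, were Spon1, an extracellular matrix protein (r = 0.91), Ell2, an elongation factor that favours secreted antibody transcripts (r = 0.91), and Sdc1 (r = 0.89). For Ighm they were Cacna1h (r = 0.90), Derl3, a protein of endoplasmic reticulum quality control (r = 0.87), and Ckap4 (r = 0.86), and for Jchain Ckap4 (r = 0.86), Spon1 (r = 0.84) and Xbp1, the transcription factor of the secretory programme (r = 0.83).

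In the thymus, most constant genes were higher after flight. Igkc was at 389, 727, 408, 881, 1069 and 383 TPM in GC_WT mice 03, 05, 06, 07, 08 and 10. FL_WT mice of the numbers 03, 05, 06, 07, 08 and 10 had 1156, 792, 1587, 985, 633 and 878 TPM. KO mice on the ground had 462, 523, 424, 471, 913 and 756 TPM, and KO mice in flight 939, 1094, 763, 1218 and 1238 TPM. Only GC11 of the GC_KO mice reached into the FL_KO range. Between FL_KO and GC_KO Igkc was higher by log2 0.60 (adjusted p = 0.0481), the only one of the 10 genes that passed, beside 38.2% of all genes called in either direction and 19.3% higher. That call was lost in 13 alternatives, among them DESeq2 and the fits without FL_KO mouse 02, 11 or 12, FL_WT mouse 03, 07 or 10, GC_KO mouse 01, 02, 04 or 09 or GC_WT mouse 05. Between FL_WT and GC_WT 0 of 10 passed in edgeR, beside 22.8% of all genes, with 3 under an unadjusted 0.05 and a smallest adjusted p of 0.0519. Of all thymus genes, edgeR called 1925 higher and 1796 lower there, while limma on log2(TPM + 1) called 3923 higher and 237 lower, and the median of all genes was 0.18 on that scale. The interaction was not significant for any of the 10 (smallest adjusted p = 0.841), with 0 under an unadjusted 0.05.

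Averaged over both genotypes, a contrast added after the values were seen, 7 of 10 genes rose with flight, beside 48.7% of all thymus genes that were called and 25.1% that were higher. Igkc rose 1.42-fold (log2 0.51 ± 0.16, adjusted p = 0.0125) and Ighm 1.23-fold (0.30 ± 0.12, adjusted p = 0.0358). Ighd, at 1.16 to 2.05 TPM on the ground and 1.69 to 3.06 TPM in flight, rose 1.32-fold (0.40 ± 0.11, adjusted p = 0.00566). Igha rose 1.41-fold (0.49 ± 0.17, adjusted p = 0.0218), Ighg2b 1.37-fold (0.46 ± 0.19, adjusted p = 0.0454), Ighg3 2.0-fold (1.0 ± 0.40, adjusted p = 0.0409) and Ighe 2.02-fold (1.01 ± 0.37, adjusted p = 0.0280). The values of Jchain (log2 0.31 ± 0.13, adjusted p = 0.0549), Ighg2c (0.42 ± 0.32, adjusted p = 0.296) and Ighg1 (0.13 ± 0.51, adjusted p = 0.859) did not pass. The Ighm, Ighg2b and Ighg3 calls were lost in 14, 17 and 12 of 32 alternatives. The Igkc call held in all 32 alternatives, and the Igha call was lost only without FL_WT mouse 06 (adjusted p = 0.052). The Ighd call held in all 30 of its alternatives. Ighd was not tested in limma, which took only genes with a group mean of at least 5 TPM. Ighg3 depended on that mouse, at 15.5 TPM the highest of all thymuses. Without it the value was log2 0.44 (adjusted p = 0.248), and between FL_WT and GC_WT it turned from 0.62 to -0.50.

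**Figure D3:**
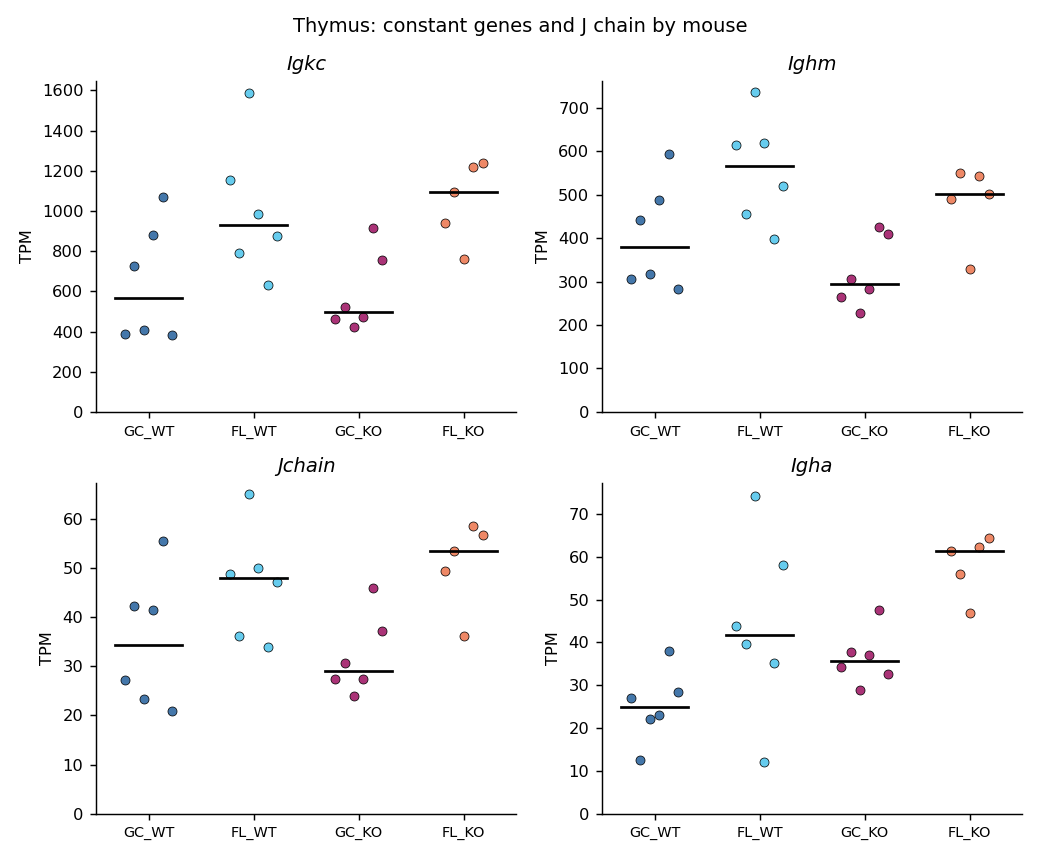
TPM of Igkc, Ighm, Jchain and Igha in each thymus by group, on linear axes that start at 0. Points are mice and lines are group medians. FL_KO mice have 763 to 1238 TPM of Igkc, and 5 of 6 GC_KO mice lie below the lowest of them.

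Genes of B cells rose in the same thymuses, so the constant genes did not move alone. Of 16 mature B cell genes, 6 rose with flight in WT, 14 in KO and 13 in the average contrast, and 0 fell. Of all 16308 thymus genes tested, 1925, 3151 and 4093 were called higher in these contrasts and 1796, 3082 and 3841 lower. The summed level of the mature B cell genes was 34.7 to 44.2 TPM in GC_WT and 46.6 to 63.7 TPM in FL_WT. In KO mice it was 23.8 to 42.8 TPM on the ground and 54.9 to 67.6 TPM in flight. Flight and ground did not overlap in either genotype. The median of all thymus genes also rose with flight on the TPM scale, and overlap was not counted over all genes. Cr2, a complement receptor of follicular B cells, rose by log2 0.83 in WT (adjusted p = 0.000522) and 1.14 in KO (adjusted p = 1.66e-05). Blnk, an adaptor of B cell receptor signalling, rose by 0.54 (adjusted p = 0.000382) and 0.82 (adjusted p = 2.47e-06). Of 13 plasma cell genes, 1 rose and 2 fell in WT, and 7 rose and 1 fell in KO mice. The plasma cell list thus moved in both directions. Among its genes that rose in KO mice, Sdc1, which epithelial cells also express, rose by log2 0.62 (adjusted p = 0.00102). Irf4, a factor of plasma cell differentiation, rose by 0.58 (adjusted p = 0.000384). Of 10 thymic epithelial genes, 4 rose in each genotype. Iglc2, a lambda light chain constant gene that is the counterpart of Igkc, rose by log2 1.07 in both genotypes (adjusted p = 0.0271 and 0.0197).

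Other cell lists moved too, beside the counts over all thymus genes given above. All 7 receptor genes tested rose in KO mice and 3 of 7 in WT mice, with Fcgr3, a low affinity IgG receptor, at log2 0.55 (adjusted p = 0.00859) in WT and 0.85 (adjusted p = 0.000217) in KO. Macrophage genes rose in 5 of 10 in WT and 9 of 10 in KO mice, and stroma genes in 2 of 5 and 4 of 5, among them the chemokine gene Ccl19 (log2 0.63, adjusted p = 0.00452, and 1.27, adjusted p = 3.05e-06). T cell genes fell in 7 of 10 in WT and 9 of 10 in KO mice, with Cd4 at log2 -0.46 (adjusted p = 1.37e-05) and -0.64 (adjusted p = 2.02e-07). The summed T cell list was 2217 to 2577 TPM in GC_WT and 1906 to 2283 TPM in FL_WT, and 1686 to 2508 TPM in GC_KO and 1619 to 1831 TPM in FL_KO. The part of these changes in the constant gene levels was not tested.

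Switched genes differed by genotype in the thymus as well. Over the average contrast 3 of 10 were higher in KO mice, beside 6.16% of all genes called higher and 11.4% in either direction. These were Ighg2c (2.06-fold, log2 1.04 ± 0.32, adjusted p = 0.0355), Ighe (2.28-fold, 1.19 ± 0.37, adjusted p = 0.0398) and Igha (1.48-fold, 0.57 ± 0.17, adjusted p = 0.0342). Ighg2c was at 5.09 to 101 TPM in WT and 29.7 to 131 TPM in KO thymuses, with FL06 the only WT mouse above 53.3 TPM. Ighg1 was at log2 1.45 ± 0.51 (adjusted p = 0.0651). The calls were lost in 11, 14 and 7 alternatives for Ighg2c, Ighe and Igha. Without WT mice GC03, GC10, FL05 and FL08 together, 0 of these 3 passed (Ighg2c log2 0.67, adjusted p = 0.113; Ighe 1.27, 0.0639; Igha 0.57, 0.0748), and Ighm passed as lower in KO (log2 -0.35, adjusted p = 0.0353), beside 12.6% of all genes called. By housing condition, 0 of 10 passed in edgeR either on the ground (3.81% of all genes called, 3 members under an unadjusted 0.05) or in flight (2.64% called, 1 under an unadjusted 0.05).

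Because the tissues came from the same animals, the deviation of each mouse from its group mean of log2(TPM + 1) was compared between tissues. This was added after the values were seen and covered 28 relations over 23 mice, with p-values from 100000 permutations within groups and Benjamini-Hochberg adjustment over the 28. Over all mice, the deviations of Igkc in spleen and thymus went together (r = 0.665, permutation p = 0.00383, adjusted 0.0395, and rho = 0.698, p = 0.00226, adjusted 0.0413). Without FL08 and GC10, the mice farthest from the median on the spleen axis, r was 0.570. Those of Ighg3 did so too (r = 0.656, permutation p = 0.00154, adjusted 0.0395, and rho = 0.644, p = 0.00295, adjusted 0.0413), and r was 0.559 without FL08 and GC03. For Ighg2c r was 0.657 (permutation p = 0.00423, adjusted 0.0395) and 0.545 without FL05 and GC03, and its rho of 0.579 (p = 0.00960) had an adjusted p of 0.0672. Ighm gave r = 0.584 (permutation p = 0.0106, adjusted 0.0497) and 0.485 without GC03 and GC10, with a rho of 0.521 (p = 0.0217, adjusted 0.101). The relations of Igkc, Ighm and Ighg2c rested on few WT mice, and that of Ighg3 did so in part. Without GC03, GC10, FL05 and FL08, whose spleens formed a group of their own in Igkc and Ighm, r over the remaining 19 mice was 0.355 for Igkc (permutation p = 0.154), 0.150 for Ighm (p = 0.606), 0.287 for Ighg2c (p = 0.256) and 0.472 for Ighg3 (p = 0.0361), all unadjusted. Over all 23 mice, Ighg1 (r = 0.057), Ighe (r = -0.026) and Ighd (r = 0.157) gave adjusted permutation p-values of 0.854, 0.898 and 0.695. FL06 had the highest Ighg3 among WT mice in spleen (1198 TPM), thymus (15.5 TPM) and TpB (23.3 TPM), and FL12 had the highest Ighg2c of all in spleen (6408 TPM) and thymus (131 TPM).

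**Figure D4:**
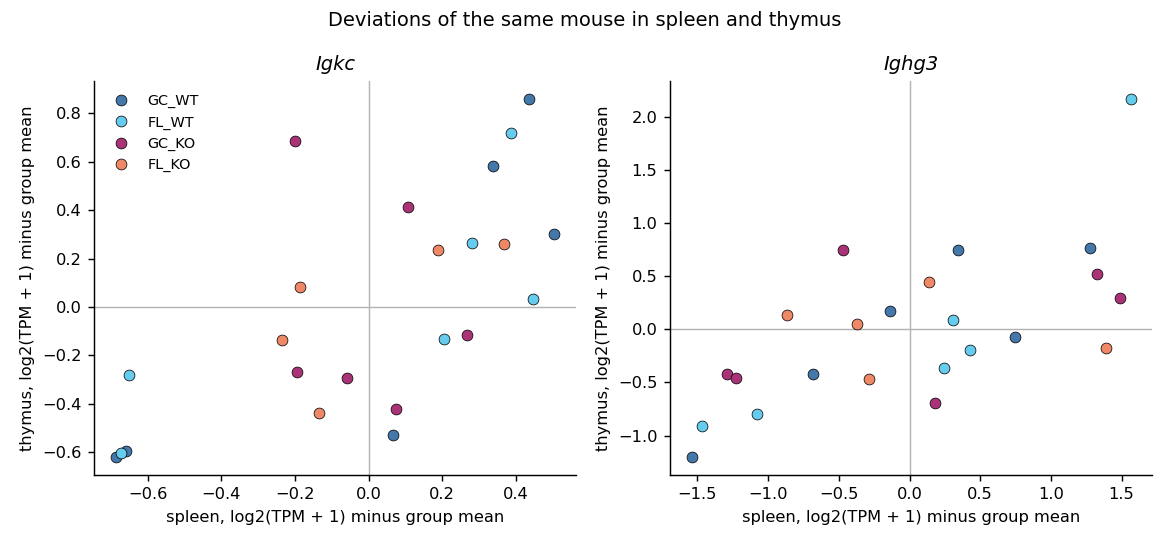
Deviation of each mouse from its group mean, as log2(TPM + 1), in the spleen (horizontal) and the thymus (vertical), with colours for the 4 groups. Over 23 mice r is 0.665 for Igkc and 0.656 for Ighg3. In the Igkc panel 4 WT mice lie apart at the lower left, and without them r over 19 mice is 0.355.

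Relations with TpB were weaker. Between spleen and TpB, Ighg1 passed by Pearson (r = 0.584, permutation p = 0.0107, adjusted 0.0497, and 0.513 without FL01 and FL11) but not by Spearman (rho = 0.57, p = 0.00874, adjusted 0.0672). Between thymus and TpB, Ighg3 passed by Pearson (r = 0.677, permutation p = 0.00879, adjusted 0.0497) but not by Spearman (rho = 0.514, p = 0.0202, adjusted 0.101), and r fell to 0.402 without FL06 and GC03, so that it rested on those mice. The median r was 0.49 over 10 genes between spleen and thymus, 0.312 over 9 between spleen and TpB and 0.123 over 9 between thymus and TpB. TpB libraries came in 2 ranges of library numbers, and neither relation held in both. For Ighg1 in spleen and TpB r was 0.922 over the 11 mice numbered 01 to 06 and 0.194 over the 12 numbered 07 to 12. For Ighg3 in thymus and TpB it was 0.954 and 0.110.

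In eWAT, a fat depot that holds few B cells, constant gene levels varied widely from mouse to mouse. Igkc was at 229, 232, 4.90, 1516, 44.3 and 44.7 TPM in GC_WT mice 03, 05, 06, 07, 08 and 10. FL_WT mice of the same numbers in flight had 3321, 13.8, 156, 327, 54.0 and 346 TPM. It was at 87.8 to 350 TPM in GC_KO and 27.4 to 279 TPM in FL_KO. FL03 and GC07 stood apart, and FL03 also had the highest Ighm (1544 TPM), Ighd (22.2 TPM) and Ighg2c (212 TPM, against at most 4.16 TPM elsewhere). The B cell marker Cd79a and 1 stromal chemokine gene, Cxcl13, were highest in the same mice. Cd79a was at 27.9 TPM in FL03 and 7.9 TPM in GC07 against 0.1 to 2.6 TPM in the other mice, and Cxcl13 was at 98.8 and 17.1 TPM against 0.4 to 6.1 TPM. The stromal chemokine genes Ccl21a and Ccl19 were not, with Ccl21a at 24.1 TPM in FL03, 49.0 TPM in GC07 and 226 TPM in GC01, and Ccl19 at 0, 0.68 and 5.89 TPM. Madcam1 and Glycam1, which mark lymph node vessels, were at or near 0, the highest being 1.1 TPM of Glycam1 in FL03. The part of these markers in the constant gene levels of FL03 and GC07 was not tested. Among genes ranked by likeness over the eWAT mice, Cxcl13 was the first for both Ighm (r = 0.80) and Jchain (r = 0.75).

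Within a genotype, Igha was the only constant gene of eWAT that passed with flight in edgeR, beside 7.74% of all genes called between FL_KO and GC_KO (3.86% lower). It was at 10.95, 7.24, 0.75, 3.04, 0.67 and 1.84 TPM in GC_KO mice 01, 02, 04, 09, 11 and 12, and at 0.62, 0.05, 0.45, 0.14 and 0.62 TPM in FL_KO mice 01, 02, 09, 11 and 12 (log2 -3.37 ± 0.96, adjusted p = 0.0333). All FL_KO values lay under the lowest GC_KO value. The call was lost without any 1 of the 5 FL_KO mice and without GC_KO mouse 01 or 02. In WT mice the difference was log2 1.82 ± 0.78 (adjusted p = 0.133), and the interaction did not pass (log2 -5.19, adjusted p = 0.311). Ighm had values of log2 -0.38 (adjusted p = 0.658) in WT and -1.42 (adjusted p = 0.0891) in KO mice with flight. Without FL03 they were -1.3 (adjusted p = 0.016) and -1.42 (adjusted p = 0.014), and without FL03 and GC07, a fit added after the values were seen, -1.11 (adjusted p = 0.044) and -1.42 (adjusted p = 0.013). Between FL_WT and GC_WT 0 of 7 genes tested passed in edgeR (13.3% of all genes did), with 2 under an unadjusted 0.05.

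In the averaged contrasts of eWAT, Ighg2b passed as higher in flight (adjusted p = 0.0142, beside 21.8% of all genes called and 11.2% higher) and Ighg1 as lower in KO mice (adjusted p = 0.0342, beside 3.75% and 1.99% lower). By genotype within a housing condition 0 of 7 passed in edgeR, on the ground (2.71% of all genes, 1 member under an unadjusted 0.05) and in flight (1.1%, 4 members). Most mice were at or near 0 for both genes, so no fold is given. Ighg2b was at 25.8 TPM in FL03, 13.2 TPM in FL01 and 2.67 TPM in FL10 and at 0 to 1.15 TPM in all other eWAT samples. It did not pass without FL01 (adjusted p = 0.456) or FL03 (adjusted p = 0.062). Ighg1 was at 11.5 TPM in GC07, 6.59 TPM in FL07, 4.97 TPM in FL03 and 3.43 TPM in FL10, and at 0 to 0.55 TPM elsewhere. It did not pass without FL_KO mouse 01, 09, 11 or 12 or GC_KO mouse 01, 02 or 11, and it fell under the filter on low counts without GC_WT mouse 03 or 07 or FL_WT mouse 03, 07 or 10.

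A complete antibody transcript carries a variable segment joined to the constant region, so variable segment counts were set beside the constant counts. The table held 185 Ighv and 160 Igkv genes. Per 100 heavy chain constant counts there were 11 to 16.3 Ighv counts in Spl (median 12.6) and 10.6 to 16.9 in Thy (median 13.8), but only 0 to 12.3 in eWAT (median 1.57). GC06 had 0 Ighv counts beside 4522 heavy chain counts in eWAT, of which 4496 were Ighm, and GC08 had 34 beside 9084. Only FL03 (12.3) lay in the range of the spleen, and GC07 (10.7) was just under it. Low ratios were not particular to eWAT. All TpB ratios, at 4.59 to 9.88, lay under the lowest spleen. The ratio was 3.08 to 12.5 in MdB, 0 to 11.8 in brown fat and 4.11 to 14.7 in kidney. Per 100 Igkc counts, Igkv counts were 16.8 to 42.4 in eWAT (median 28.3), 17.7 to 32.1 in Spl (median 23.8) and 27.9 to 38.0 in Thy (median 33.9). In eWAT the kappa chain counts thus came with variable segments at the ratio of the lymphoid organs. The heavy chain ratio lay under the range of the spleen in all eWAT samples but FL03. In GC06, Ighm was at 310 TPM and Igkc at 4.90 TPM.

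**Figure D5:**
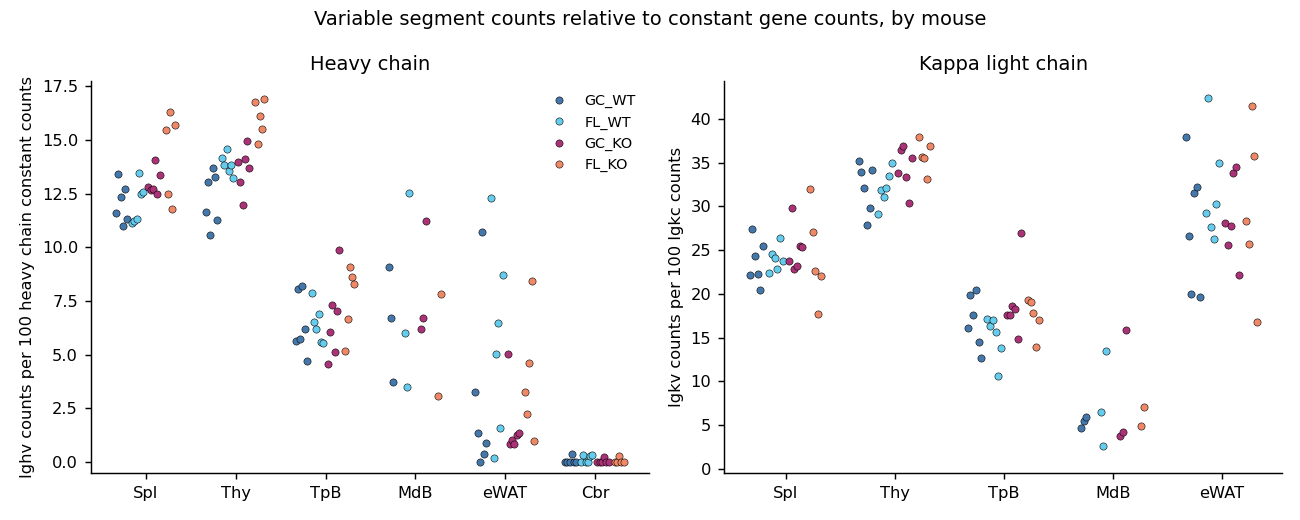
Ighv counts per 100 heavy chain constant counts (left) and Igkv counts per 100 Igkc counts (right), by tissue. Each point is a mouse, coloured by group. In eWAT the heavy chain ratios have a median of 1.57 and only FL03 lies in the range of the spleen, while the kappa ratios (median 28.3) lie at the level of spleen and thymus. TpB heavy chain ratios also lie under those of the spleen.

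In the cerebrum (Cbr) the heavy chain ratio was lower still. There Ighm was at 24.6 to 43.1 TPM with Igkc at 0.33 to 5.99 TPM, and each library held 0 to 2 Ighv counts beside 262 to 506 heavy chain counts. These ratios do not correct for gene length and were compared only between samples. Those of Thy came from libraries prepared in another way than the rest. MdB had the opposite imbalance, with Igkc at 74.1 to 120 TPM and Ighm at 5.04 to 23.9 TPM. Its Igkv counts were 2.56 to 15.9 per 100 Igkc counts (median 5.49, from 9 to 49 Igkv counts per library), lower in all 11 libraries than the 16.8 or more of eWAT. FL06 and GC04, the MdB samples with the most Ighm (23.9 and 17.9 TPM), also had the highest ratios, at 13.4 and 15.9. Of B lineage markers in MdB, Cd79a was at 0.4 to 2.0 TPM and Mzb1 at 0 to 0.6 TPM, while Sdc1, which epithelial cells also express, was at 213 to 324 TPM and Xbp1, a transcription factor of secretory cells, at 108 to 143 TPM.

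No constant gene passed in either bone in edgeR. In TpB, where 0% of all genes were called with flight in either genotype, 0 of 9 members were under an unadjusted 0.05 in either flight contrast. Between genotypes 0.198% (ground) and 0.203% (flight) of all genes were called and 0 of 9 members, with 1 under an unadjusted 0.05 in each. Averaged over housing, Ighg2c was 4.45-fold higher (log2 2.15 ± 0.70) and Ighg1 3.22-fold higher (log2 1.69 ± 0.59) in KO, but with adjusted p-values of 0.686 and 0.904 (0.363% of all genes called). Ighg2c was at 0.77 to 15.6 TPM in WT and 0.80 to 69.8 TPM in KO samples. The TpB libraries of mice 01 to 06 and of mice 07 to 12 have library numbers in separate ranges. The Ighg2c difference of mean log2 CPM between GC_KO and GC_WT was -0.19 in the first and 3.09 in the second, and between FL_KO and FL_WT it was -0.69 and 3.55. It did not hold within both ranges. In MdB 0 of 7 members passed with flight or genotype, beside 0% of all genes with flight, 0.244% by genotype on the ground, 0.208% in flight and 0.513% averaged, with 0 under an unadjusted 0.05 with flight, 1 by genotype on the ground and 0 in flight.

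In liver, kidney, interscapular brown fat (iBAT) and cerebrum, levels were low and are given as descriptions. Igkc was at 10.1 to 185 TPM in liver (median 18.9), 17.5 to 104 TPM in kidney (median 38.1, 12 mice), 0.85 to 166 TPM in iBAT (median 2.98) and 0.33 to 5.99 TPM in cerebrum (median 1.66). Ighm was at 2.6 to 66.4 TPM in liver and 0.93 to 74.7 TPM in iBAT, with medians of 4.75 and 2.97 TPM. Igha was higher by median in kidney (4.32 TPM, from 2.95 to 11.4) than in liver (0.57 TPM, from 0.20 to 1.15), and those ranges did not overlap. Ighe was listed at 0 in all samples of these 4 tissues.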

How the data were processed

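RNA from separate mice was sequenced as 76-base single reads from strand-specific libraries, of poly(A) RNA except for thymus, where total RNA was depleted of ribosomal RNA. The authors aligned reads with STAR 2.6.1 and estimated levels with RSEM 1.3.1 on GENCODE vM20 (mm10). The deposited table held expected counts and TPM, both used here, and 192 FPKM columns that were not used. Expected counts were rounded to whole numbers. In each tissue 1 edgeR (4.0.16) quasi-likelihood model held the 4 groups, with filterByExpr, TMM factors and Benjamini-Hochberg adjustment over the tissue, and genes with an adjusted p below 0.05 were called. R 4.3.3, limma 3.58.1 and DESeq2 1.42.0 gave alternatives, and the code was tested on simulated data. Flight mouse 04 was left out. Libraries held 8007523 to 16046347 counts.

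The 10 genes and the 17 other gene lists were chosen with earlier results of these data known. Named were the 10 genes, Nfe2l2, in each list up to 4 called genes with the smallest adjusted p in a flight contrast, defining markers, and the 3 genes most like Igkc, Ighm and Jchain by Pearson r among genes of mean TPM 5 or more. Other named genes were chosen after their values were seen. The averaged contrasts, the correlations between tissues of a mouse, and the fits without FL03 and GC07 in eWAT or without GC03, GC10, FL05 and FL08 in spleen and thymus were added after the values were seen. Sequences were read from GENCODE vM21 transcripts on GRCm38.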

Additional observations from a re-analysis of the deposited data

Results flagged for a closer look

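In groups of 5 or 6 mice whose highest TPM reached 10, the highest or lowest mouse of a gene was set against its neighbour by Dixon's ratio of gap to range, and 30 of 110 groups were past the limit. The limit passes about 1 in 20 groups of normally distributed values, but it was used here on TPM without a log. Groups of low genes entered only through their highest mouse, and genes of the same library are not independent of each other. The count of groups can therefore not be set against chance.

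In the spleen the single high values were Ighg2b in FL12 (6253 TPM), Ighg3 in FL01 (2140 TPM), Jchain in GC02 (1142 TPM) and Ighe in GC11 (16.3 TPM). In the thymus FL06 was far above the other FL_WT mice in Ighg2b (84.8 TPM), Ighg2c (101 TPM) and Ighg3 (15.5 TPM). Ighg1 stood out in FL02 (15.6 TPM) and GC11 (25.7 TPM), and Ighm of FL09 was low at 329.5 TPM.

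In TpB, FL09 stood out in Ighd (96.3 TPM) and Ighg2c (48.0 TPM), FL06 in Ighg2c (15.6 TPM) and Ighg3 (23.3 TPM), FL08 in Ighg2b (22.5 TPM) and GC12 in Ighg2c (69.8 TPM). Igha of GC01 was the lone low value, at 3.01 TPM. FL06 thus stood apart in IgG genes of both thymus and TpB.

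In eWAT there were 13 such values, and 9 came from FL03 or GC07. FL03 stood out in Igkc (3321 TPM), Ighm (1544 TPM), Ighg2c (212 TPM), Jchain (72.5 TPM), Ighg2b (25.8 TPM) and Ighd (22.2 TPM), and GC07 in Igkc (1516 TPM), Jchain (48.0 TPM) and Ighg1 (11.5 TPM). The others were Igkc (349.8 TPM) and Jchain (11.6 TPM) in GC01, Igha in FL06 (18.6 TPM) and Ighg2b in FL01 (13.2 TPM).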

How the results depend on the processing

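Counts below are of gene and tissue pairs called, with 43 pairs tested in the main edgeR fit. Limma, DESeq2 and fits with another filter or other mice could cover a different number of pairs. FL_WT against GC_WT, with 0 calls, gave 3 in limma with either pseudocount (1 or 0.1), 1 with no filter on low counts and 1 without FL03 and GC07 in eWAT. FL_KO against GC_KO, with 2 calls, gave 5 in limma with either pseudocount, 6 with FL04 included, 6 without GC03, GC10, FL05 and FL08 in spleen and thymus, and 9 with only those groups in the fit. FL_KO against FL_WT, with 1 call, gave 6 in DESeq2, 0 in limma with either pseudocount, 2 with no filter, 2 with FL04 and 0 without the 4 WT mice. The interaction gave 1 call in DESeq2. The averaged genotype contrast fell from 8 calls to 4 without the 4 WT mice, with 2 higher and 2 lower. The causes were not tested.

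Leaving out each of 23 mice in turn gave 0 to 2 calls for FL_WT against GC_WT, 0 to 4 for FL_KO against GC_KO, 0 to 1 for GC_KO against GC_WT, 0 to 3 for FL_KO against FL_WT and 0 to 0 for the interaction. The averaged contrasts gave 4 to 9 calls for genotype and 3 to 8 for flight. Of 1454 alternatives for 46 fold changes, 1247 kept direction and side of the threshold, 125 lost a call, 81 gained one and 1 reversed, namely Ighg3 in Thy between FL_WT and GC_WT, at -0.50 without FL_WT mouse 06 and up to 0.87 without GC_WT mouse 05.

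Same-numbered flight and ground mice did not deviate together throughout (r -0.077 to 0.163 in spleen, -0.071 to 0.139 in thymus, -0.481 to 0.726 in TpB, -0.173 to 0.408 in eWAT). Whether they share more than a number cannot be told from these values. With the mouse number as a replicate block, FL_KO against GC_KO gave 1 call and the averaged flight contrast 4 in place of 8. No paired analysis was possible for genotype contrasts because numbers are not shared between genotypes, nor was it run in MdB, which has few pairs.

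As shares of expected counts, switched genes made up 21.5% in GC_WT thymus (17.6% by TPM), 31.2% in GC_KO thymus (27.3%) and 20.8% in FL_KO TpB (16.5%). On the limma scale the median of all genes moved by 0.16 to 0.19 with flight and by -0.11 to -0.12 with genotype in thymus, and by 0.10 to 0.20 with flight in TpB. Low totals limit Ighe outside the spleen and all classes in MdB.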

Other observations

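Genes of the germinal centre and of class switching split in the flight thymus. Of 10 tested, 2 rose and 3 fell in WT and 3 rose and 3 fell in KO mice. Of all thymus genes, 22.8% were called in either direction in WT and 38.2% in KO mice. Cxcr5, a chemokine receptor of B cells and follicular T cells, rose by log2 0.64 in WT (adjusted p = 0.00434) and 1.06 in KO (adjusted p = 2.69e-05, edgeR). Bcl6, a transcription factor of germinal centre cells, fell by 0.25 (adjusted p = 0.00142) and 0.48 (adjusted p = 1.17e-06), and the death receptor gene Fas fell by 0.49 (adjusted p = 8.92e-06) and 0.41 (adjusted p = 2.47e-05). Of 10 thymic epithelial genes 4 rose in each genotype.

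In eWAT, 3 of 9 antibody receptor genes rose in FL_WT against GC_WT, namely Fcgr1 (log2 0.74, adjusted p = 0.0360), Fcer1g (0.44, adjusted p = 0.0376) and Fcgr3 (0.36, adjusted p = 0.0196), and 0 of 9 passed between FL_KO and GC_KO in edgeR. Of all 15301 eWAT genes tested, 13.3% were called in WT (1073 genes higher) and 7.74% in KO mice (594 genes higher). The change in flight did not differ past the threshold between the genotypes for any of the 3 (interaction of flight and genotype, log2 -1.12 and adjusted p = 0.402 for Fcgr1, -0.48 and 0.548 for Fcer1g, and -0.18 and 0.746 for Fcgr3).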
